A study of Mus musculus with 5 samples.

Results

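The cells described here are the Postn-high fibroblasts of the mouse heart, 531 of 47319 cell barcodes in 5 single-cell RNA libraries. They were defined from their own unique molecular identifier (UMI) counts, each UMI standing for 1 captured RNA molecule. A member had at least 5 UMIs over Dcn, Col1a1 and Pdgfra, at least 3 of Postn, and at most 10% of its UMIs from mitochondrial genes. It also had fewer than 5 UMIs over the interferon-induced genes Cxcl9, Cxcl10 and Gbp4, at most 1 over the endothelial and leukocyte genes Pecam1, Cdh5 and Ptprc, and at most 1 over the mural cell genes Myh11 and Rgs5. The reference was the 8572 fibroblasts of the same libraries with 0 Postn UMIs that passed the same exclusions, called Postn-zero fibroblasts below.

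Every mouse in the study lacked Pdcd1, which encodes the T cell checkpoint receptor PD-1. Controls were Ctla4+/+ Pdcd1-/- (4 mice, 2 libraries, replicates 1 and 2), and disease mice were Ctla4+/- Pdcd1-/- (10 mice, 3 libraries, replicates 3, 4 and 5), a genetic model of the myocarditis caused by immune checkpoint inhibitors. Hearts were digested with enzymes and pooled, and intact nucleated cells were sorted as DRAQ5-positive and DAPI-negative before droplet capture with a 10x Genomics chemistry that reads the 5-prime end of transcripts. The genotype and stain entries of some samples carry other numbers for Pdcd1 and DRAQ5 than the design text, which was followed. The labels give neither the age of the mice nor which mice went into which library, so p-values measure the spread between libraries of pooled hearts.

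Fibroblasts make and remodel the matrix of the heart. Resting cardiac fibroblasts express Dcn and Pdgfra and little Postn. After injury or pressure load some become activated, secrete periostin (the product of Postn, a matricellular protein that binds collagen) and raise fibrillar collagens. Cells that also build contractile fibres of smooth muscle actin (Acta2) are called myofibroblasts, and cells of mature scars that express cartilage and tendon genes such as Cilp, Comp and Chad have been called matrifibrocytes. TGF-beta is the best known activating signal, and MEOX1 is a homeobox transcription factor linked to fibroblast activation.

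The 5 libraries held 24991704 to 55053988 UMIs in all and 5590 to 9964 barcodes after the mitochondrial filter. The controls gave 128 members in replicate 1 and 40 in replicate 2, and the disease hearts 111 in replicate 3, 74 in replicate 4 and 178 in replicate 5. Values below follow this order of libraries unless stated. The median member had 7914 to 9970 UMIs, against 4749.5 to 5935 in Postn-zero fibroblasts. Scrublet, a doublet caller, marked 4 members. A barcode sequence was shared by at least 2 libraries 782 times; 21 members carried such a barcode, and 0 barcodes belonged to members of 2 libraries. Disease replicate 4 stood farthest from the controls in the summed profile of the members (Pearson r of log2 expression across genes 0.757 and 0.819, against 0.831 to 0.889 for disease replicates 3 and 5), and the control pair had r = 0.913. Ctla4 was found in 6 members and Pdcd1 in 7, so neither gene could serve as a check of genotype in these cells.

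The members' share of fibroblasts was higher in each disease library than in each control library, but 5 libraries could not separate the groups by test. Of the fibroblasts that passed the exclusions, members made up 4.19% (95% Wilson interval 3.54 to 4.96) and 3.01% (2.22 to 4.07) in the controls. The disease libraries gave 6.06% (5.06 to 7.25), 4.67% (3.74 to 5.83) and 9.35% (8.12 to 10.7). The mean was 3.60% ± 0.837 (SD, n = 2) in controls and 6.69% ± 2.40 (SD, n = 3) in disease, a difference of 3.09 percentage points (two-sided exact permutation of the group labels, p = 0.2, with 0.1 the smallest p that 2 against 3 libraries allow). Without disease replicate 5 the difference was 1.77 points. Intervals cover counting error only.

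The share depended on the exclusions and on which cells stood in its denominator. Over all fibroblasts, including those removed by the exclusions, members were 3.36 and 2.69% in controls and 5.21, 3.05 and 7.40% in disease, so that disease replicate 4 fell between the control libraries (difference 2.19 points, exact permutation p = 0.3). That setting applied the exclusions to the members but not to the denominator. With the interferon exclusion lifted from both, shares were 4.26 and 2.97% against 6.05, 6.51 and 11.9% (difference 4.53 points, exact permutation p = 0.2). With all exclusions lifted from both, disease replicate 4 was at 6.35% and the difference was 4.605 points (exact permutation p = 0.2). Both of these settings were chosen after seeing the data. When each cell was thinned to 2000 UMIs, shares were 1.63 and 1.20% against 2.81, 2.78 and 5.00% (difference 2.11 points, exact permutation p = 0.1, the smallest possible); 183 control and 311 disease fibroblasts of the 9700 had fewer UMIs and were left out. The interferon exclusion removed 8 of 151 fibroblasts with at least 3 Postn UMIs in control replicate 1 and 0 of 46 in control replicate 2. It removed 1 of 127, 70 of 154 and 81 of 291 in disease replicates 3, 4 and 5.

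**Figure D1:**
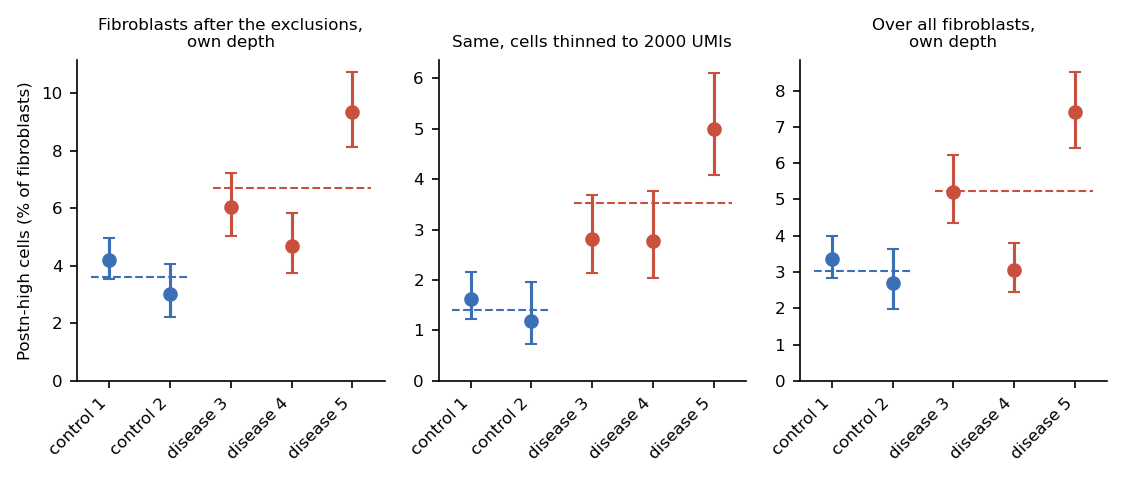
Members as a percentage of fibroblasts in each library, with 95% Wilson intervals for counting error; dashed lines are group means. The left panel uses fibroblasts after the exclusions, the middle panel the same cells thinned to 2000 UMIs, and the right panel all fibroblasts, where disease replicate 4 at 3.05% lies between the controls. In the right panel the exclusions applied to the members but not to the denominator.

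Postn reads were rare in the leukocyte and endothelial gates. Both gates required at most 1 UMI over Dcn, Col1a1 and Pdgfra, so cells with more fibroblast RNA are left out of these shares. The leukocyte gate also allowed at most 1 UMI over Pecam1 and Cdh5. The endothelial gate required at least 3 UMIs over Pecam1 and Cdh5 and at most 1 of Ptprc. In leukocytes gated by at least 3 Ptprc UMIs, a type that should lack Postn, 0.516 to 2.35% of cells had a Postn UMI at median depths of 4991 to 6448.5 UMIs, and 0 cells in every library had 3 or more (taking 3 counts as the limit that a count of 0 allows, up to 0.137% of the 2185 cells of disease replicate 4, the largest gate). In the endothelial gate, 4 of 1254, 1 of 1781, 3 of 1401, 2 of 1271 and 4 of 1870 cells had 3 or more Postn UMIs, or 0.0561 to 0.319%, at median depths of 2639 to 3488.5 UMIs. The members held 88.9 to 94.0% of the Postn UMIs of fibroblasts after the exclusions. The median member carried 8, 7.5, 9, 10 and 8 Postn UMIs in the 5 libraries and the highest 80, 114, 140, 202 and 170. The 5 cells richest in Postn held 42.5% of the members' Postn UMIs in control replicate 2, the library with fewest members, and 17.5 to 36.4% in the others. Postn levels, which chose the cells, were 1398 and 1363 CPM (UMIs of the gene per 1000000 summed UMIs of the members) in controls and 1905, 2442 and 2095 CPM in disease.

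Of the activation markers that the rule did not use, Cilp was high in the members and Cthrc1 was mostly absent. Cilp, which encodes an extracellular protein of cartilage intermediate layer that binds growth factors, was at 623, 891, 795, 1094 and 1137 CPM in members and 38.0, 40.1, 56.8, 97.6 and 61.1 CPM in Postn-zero fibroblasts. Col1a1, a chain of type I collagen and part of the rule, was at 1347, 1296, 1095, 2208 and 1708 CPM in members against 1011, 1105, 1092, 1376 and 1145 CPM; disease replicate 3 showed no excess. Cthrc1, a secreted protein of activated and scar-forming fibroblasts, was found in 14 of 531 members, with 18.0 and 37.6 CPM in controls and 1.07, 3.12 and 4.67 CPM in disease. Most of these cells therefore lacked detectable Cthrc1, and they are called by their rule, Postn-high.

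Members were then set against Postn-zero fibroblasts of the same library with edgeR's quasi-likelihood test on summed counts, the library as a block. Because Postn itself split the cells, this contrast describes what accompanied Postn and supports nothing by itself; genes past the adjusted threshold of 0.05 are called higher or lower. Of 11361 genes, 1963 were past it (17.3%), 1040 higher (9.15%) and 923 lower (8.12%), and the median log2 fold change of all genes was -0.004. With Postn-zero cells drawn to match the members' depth, 772 genes were past it, 373 higher and 399 lower, and the median log2 of all genes was -0.002. The 17.3% belongs to the fit on all Postn-zero cells and is not the share for list counts at matched depth. Among the genes described below, Pi16, Sema3c, Inhba, Gbp3 and Smad3 were not past the threshold at matched depth. Fmod, Il34, Il11 and Ddah1 were too low there to be tested. Fold changes use edgeR's TMM scaling, while CPM are unscaled.

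Cilp had the largest rise among genes with a mean of at least 5 log2 CPM, 4.01 on the log2 scale (SE 0.10). Meox1 was at 345, 459, 536, 596 and 453 CPM against 88.8, 68.3, 84.3, 111 and 97.1 CPM (log2 2.40, SE 0.09). Of the 11 tested activation factors and regulators, Meox1, Cd200 and Ddah1 were higher, Fap was lower and 7 did not pass (median 0.24), and at matched depth 2 of 10 were higher and 1 lower (median -0.04). For both Cilp and Meox1 the 5 member sums lay above all 5 Postn-zero sums. Ltbp2, a matrix protein of the latent TGF-beta binding family, was close to absent in Postn-zero fibroblasts at 1.71 to 4.78 CPM and reached 94.5, 96.6, 144, 126 and 115 CPM in members (log2 5.15, SE 0.15). Atp6v0a4, a subunit of the vacuolar proton pump, was at 36.7, 51.0, 79.3, 84.3 and 83.3 CPM against 0.66 to 4.43 CPM (log2 5.13, SE 0.23).

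Of 17 tested collagen genes, 9 were higher and 1 was lower, with a median log2 of 0.52; at matched depth 7 of 16 were higher and 1 lower, with a median of 0.34. Col8a1, a short-chain collagen of vessel and valve matrix, was at 1054, 1695, 1478, 1771 and 1671 CPM in members and 289 to 434 CPM in Postn-zero fibroblasts (log2 2.10, SE 0.07). Col12a1, which coats collagen fibrils in load-bearing tissue, was at 18.7 to 29.5 CPM against 4.31 to 6.09 CPM (log2 2.32, SE 0.19). The chains of fibrillar type I, III and V collagen differed less: Col1a2 by 0.52, Col3a1 by 0.73 and Col5a2 by 0.90. Col3a1 was highest in disease replicate 4 at 4440 CPM and lowest in disease replicate 3 at 1626 CPM, where Postn-zero fibroblasts had 1472 CPM. Col5a3 was the 1 collagen that was lower (log2 -0.96, SE 0.10), and the basement membrane genes Col4a1 (log2 -0.17) and Col15a1 (within 0.01 of 0) did not pass, although Col4a1 passed as lower without disease replicate 4. Of 22 genes for collagen processing and cross-linking, 7 were higher and 3 lower (median 0.14), with Loxl2, a lysyl oxidase that cross-links collagen, at 0.70 and the prolyl hydroxylase genes P4ha1 and P4ha2 at -0.41 and -0.39. At matched depth 3 were higher and 2 lower.

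Of 25 matricellular and matrix glycoprotein genes, 16 were higher and 4 lower (median 0.59). Sparc, a collagen chaperone of the matrix, was at 5417, 5677, 5964, 8157 and 6275 CPM against 2717 to 3662 CPM (log2 1.03, SE 0.05). Aspn, a small proteoglycan that binds TGF-beta, was at 682, 641, 849, 896 and 948 CPM against 160 to 254 CPM (log2 1.98, SE 0.06). The microfibril genes Mfap4 and Mfap5 had log2 differences of 1.92 and 1.34, and Ctgf, a target of TGF-beta and YAP signalling, 1.84. Smoc2, Thbs2, Fbln5 and Fbln1 were the 4 that were lower, with Smoc2 at 147 to 638 CPM against 477 to 1416 CPM (log2 -1.34, SE 0.09). Small leucine-rich proteoglycans and related genes split, 5 of 9 higher and 2 lower (median 0.31): Bgn (0.96), Lum (0.31), Vcan (1.31), Prg4 (2.95, SE 0.16) and Fmod (0.88, a call lost in 4 of 15 alternatives) against Ogn (-0.70) and Podn (-1.01).

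Of 24 genes of the TGF-beta pathway, 10 were higher and 3 lower (median 0.22), and at matched depth 11 of 23 were higher and 2 lower (median 0.41). Among the ligands, Tgfb1 was at 63.3, 156, 101, 114 and 101 CPM in members and 30.4 to 46.6 CPM in Postn-zero fibroblasts (log2 1.49, SE 0.11), Tgfb3 differed by 0.72, and the activin subunit gene Inhba by 0.88, or 0.67 at matched depth (edgeR adjusted p = 0.0788). Tgfb2 did not pass (-0.13). The receptors Tgfbr1, Tgfbr2 and Tgfbr3 lay between -0.06 and 0.14 and did not pass, but at matched depth Tgfbr1 was higher by 0.49 (edgeR adjusted p = 0.0419). Of the proteins that store latent TGF-beta, Ltbp3 and Ltbp4 were higher by 0.52 and 0.32 beside Ltbp2. The signal transducer Smad3 was lower (-0.71, SE 0.15, and -0.56 at matched depth with an adjusted p of 0.13) and the inhibitor gene Skil, a TGF-beta target, higher (0.71). Of 9 genes of Wnt signalling 3 were higher, namely Dkk3 (2.01), Frzb (0.95) and Fzd1 (0.71), and Sfrp1 was lower (-0.54).

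**Figure D2:**
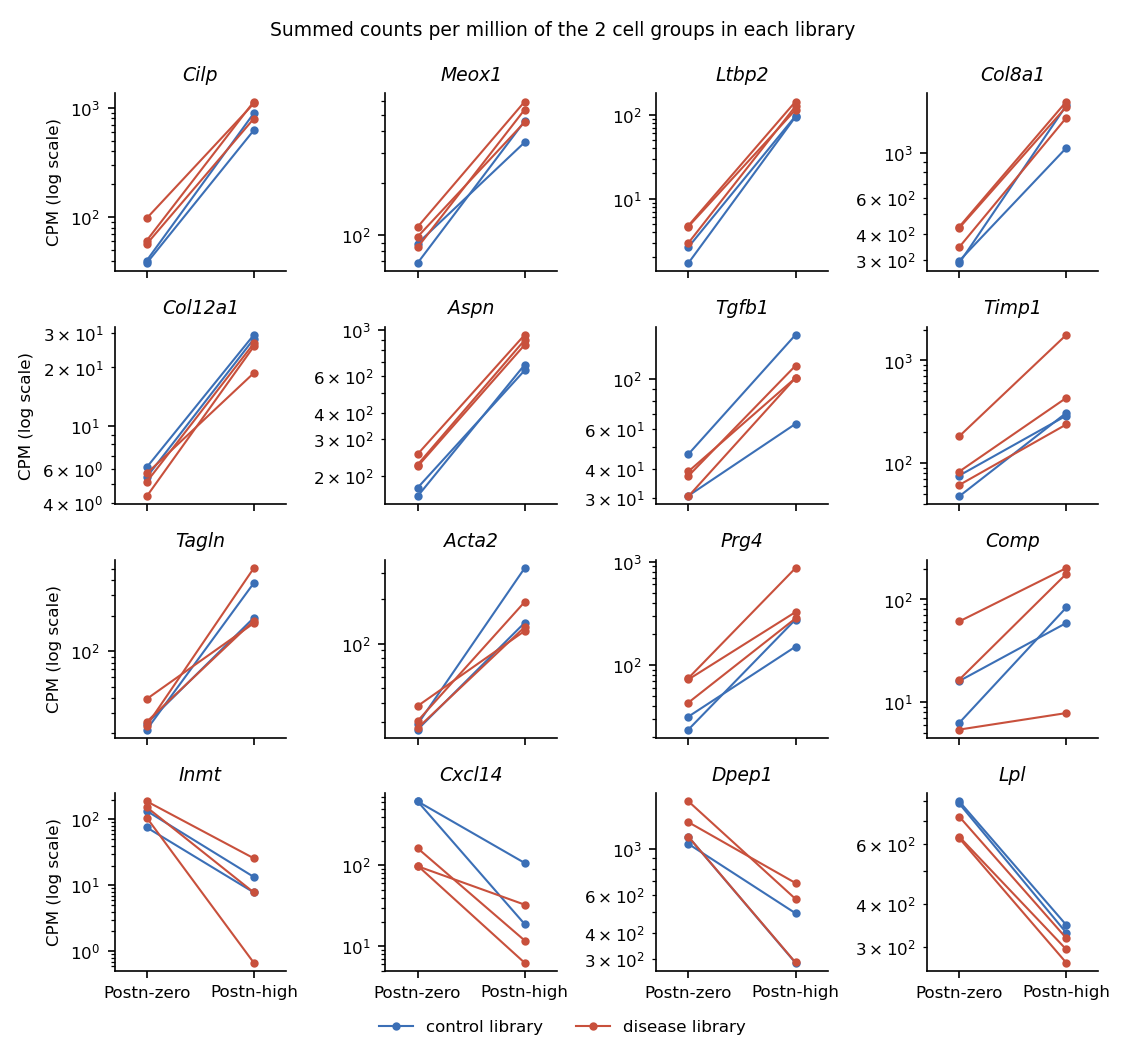
Summed CPM on a log axis for 16 genes in Postn-zero and Postn-high fibroblasts; each line joins the values of 1 library, blue for control and red for disease. The first 12 genes lie higher in Postn-high cells in all 5 libraries and the last 4, Inmt, Cxcl14, Dpep1 and Lpl, lie lower in all 5.

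Contractile genes were higher in the summed profile, and Acta2 and Tagln were detected in a minority of the cells. Of 13 tested, 10 were higher and 0 lower (median 0.51), and 7 were higher at matched depth (median 0.32). Tagln, an actin-binding protein of smooth muscle, was at 193, 381, 174, 510 and 183 CPM against 21.6 to 39.3 CPM (log2 3.29, SE 0.22, and 2.21 at matched depth), and Acta2 at 138, 322, 191, 122 and 129 CPM against 26.5 to 38.1 CPM (log2 2.51, SE 0.15). The broadly expressed Tagln2 and Myl6 differed by 0.88 and 0.45. Myl9 did not pass (-0.26), and the smooth muscle gene Cnn1 was found in 2 members. At least 2 UMIs of Acta2 were present in 74 of 531 members and of Tagln in 96, and 39 cells had both. The summed values rest on few cells: the 3 richest members of each library held 46.2 to 74.2% of the Acta2 UMIs and 39.5 to 73.2% of the Tagln UMIs, with the highest shares in control replicate 2. In the leukocyte gate 0.137% of 3648 cells had 2 Acta2 UMIs.

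Genes of cartilage and tendon, which mark matrifibrocytes, were present in part. Of 7 tested, 5 were higher and 1 lower (median 1.19): Cilp, Comp, Fmod, Angptl7 and Thbs4 against Clec3b. Comp, a tendon and cartilage matrix protein, was at 83.6, 59.0, 202, 7.80 and 178 CPM against 6.25, 16.0, 61.1, 5.38 and 16.5 CPM (log2 2.62, SE 0.25), which shrank to 1.14 at matched depth; in disease replicate 4 the levels of both cell groups were close. Thbs4 had the largest fold change of the list (log2 8.32, SE 0.48, 5.07 at matched depth and 9.70 without disease replicate 3), but 34 members carried it, and the 3 richest cells of each library held 52.9 to 100% of its UMIs. Chad was found in 3 members, Cilp2 in 3 and Scx in 2, so these markers of mature scar and tendon cells were near 0.

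The other genes that rose most were Cst6 (a cysteine protease inhibitor; log2 2.79), Uchl1 (a ubiquitin hydrolase; 2.62) and Timp1 (an inhibitor of matrix metalloproteinases; 2.49). Uchl1 was steady at 110 to 162 CPM against 16.9 to 24.9 CPM. Timp1 was uneven at 290, 309, 238, 1781 and 432 CPM, with disease replicate 4 far above the rest, and was at 47.2 to 182 CPM in Postn-zero fibroblasts. The 3 richest of the 74 members held 56.6% of the Timp1 UMIs in that library, against 29.3 to 63.5% in the others. Cst6 was low in disease replicate 4 at 6.24 CPM against 93.9 to 185 CPM in the other 4. Tnfrsf11b, the decoy receptor osteoprotegerin, was at 23.4 to 35.3 CPM against at most 3.12 CPM (log2 3.84, SE 0.28). The tenascin gene Tnc was at 13.3, 18.8, 2.14, 108 and 55.3 CPM (log2 3.44, SE 0.28), and the 3 richest members of each library held 41.0 to 100% of its UMIs. At matched depth the log2 differences were smaller, at 2.00 for Cst6, 2.01 for Uchl1, 1.78 for Timp1, 3.03 for Tnfrsf11b and 2.54 for Tnc. Of 16 genes of matrix proteases and inhibitors, 3 were higher (Timp1, Mmp2 and Ctsk) and 5 lower, among them Fap (log2 -1.42), another activation marker, at 8.05 to 16.1 CPM against 33.9 to 41.0 CPM.

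Transcripts of interstitial cardiac fibroblasts were lower in the members. Of 15 tested, 0 were higher and 13 lower, with a median log2 of -1.27, and 12 were lower at matched depth. Inmt, a methyltransferase gene, was at 7.81, 13.4, 25.7, 7.80 and 0.67 CPM against 75.5, 134, 188, 153 and 106 CPM (log2 -3.68, SE 0.22). Hsd11b1, which regenerates active glucocorticoid, was at 5.37 to 64.0 CPM against 146 to 276 CPM (log2 -2.09, SE 0.15), and the lipase gene Lpl at 270 to 348 CPM against 622 to 796 CPM (log2 -1.16, SE 0.06). Dpep1, a membrane dipeptidase, was at 494, 287, 288, 577 and 687 CPM against 1054 to 1680 CPM (log2 -1.44, SE 0.11). The chemokine gene Cxcl14 was at 107, 18.8, 11.8, 6.24 and 32.7 CPM against 618, 619, 163, 99.3 and 97.7 CPM (log2 -2.80, SE 0.22). Tcf21 and Pdgfrb did not pass (log2 -0.21 and 0.08). Tcf21 stayed short of the threshold in 9 of 16 alternatives and passed as lower in the others, among them without control replicate 1 or 2. The other large falls were Igfbp3 (log2 -2.68), Slco2b1 (-2.45), Penk (-2.21), Adm (-2.21) and Ifitm1 (-2.08). At matched depth Inmt differed by -2.94, Cxcl14 by -2.05, Igfbp3 by -1.88, Slco2b1 by -1.86, Penk by -1.49 and Ifitm1 by -1.21, and Ifitm1 differed by -3.47 without disease replicate 5.

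Of 14 adventitial fibroblast genes 11 were higher and 0 lower (median 0.45), a count that did not hold at matched depth. With depth-matched Postn-zero cells, 3 of 13 were higher and 1 lower, with a median of 0.02. Pi16, the leading marker of that population, was at 3211, 2683, 3234, 2562 and 3612 CPM against 1767 to 2594 CPM (log2 0.55, SE 0.06), and 0.06 at matched depth (edgeR adjusted p = 0.825). At matched depth Mfap5 was higher by 0.87 and Ugp2 by 0.94, and Sema3c, higher by 0.93 against all Postn-zero cells, differed by 0.28 (adjusted p = 0.22).

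Genes of the interferon response and leukocyte signals were mostly level or lower. Since the rule removed cells rich in Cxcl9, Cxcl10 and Gbp4, the 27 tested genes of the interferon-gamma response describe only what was left: 1 was higher, Gbp3 (log2 0.45, and 0.15 at matched depth), and 5 were lower, with a median of -0.02. Gbp3 kept its call in 7 of 16 alternatives, with log2 from -0.19 to 0.643. At matched depth 0 of 25 were higher and 6 lower, with a median of -0.14. Irf1, an interferon-induced transcription factor, was at 98.5 to 174 CPM against 200 to 291 CPM (log2 -0.79, SE 0.09), and Cd74, the invariant chain, differed by -0.97. Of 20 cytokine and leukocyte signal genes, 3 were higher, the macrophage growth factor Il34 (2.36), Il11 (1.01, not past the threshold in 5 alternatives) and Tnfrsf11b, and 9 were lower, among them the neutrophil chemokine Cxcl1 (-0.90), Cxcl12 (-0.83) and the complement gene C3 (-1.18). At matched depth 1 of 18 was higher and 5 were lower. Genes induced by tissue dissociation were also lower, 9 of 12 with 0 higher (median -0.30), with Egr1 at -0.71 and Jun at -0.52; the part of tissue handling was not tested.

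Markers of other cell types moved too. Summed over 9 leukocyte markers, members held 83.2 to 289 CPM and Postn-zero fibroblasts 313 to 609 CPM, and 8 of the 9 were lower. Endothelial markers summed to 42.9 to 208 CPM against 168 to 382 CPM, and mural markers to 0 to 15.3 CPM against 26.1 to 34.6 CPM. The rule capped the summed UMIs of Pecam1, Cdh5 and Ptprc, and of Myh11 and Rgs5, at 1 in both cell groups. This is a stricter limit per UMI in the deeper members, and its part in these sums was not tested. At matched depth 6 of 6 tested leukocyte markers and 1 of 1 tested endothelial marker were lower, and 0 mural markers could be tested. Mesothelial markers summed to 0 to 2.14 CPM against 11.7 to 105 CPM, with Msln and Lrrn4 at 0 in the members of every library. Valve interstitial markers went the other way and summed to 335 to 1504 CPM against 274 to 338 CPM, with the highest value in disease replicate 3, where the valve gene Cytl1 stood at 381 CPM and Prg4 at 864 CPM. Hapln1 was at 0 in 3 libraries and Scx in 3. The part of valve cells in the differences above was not tested. Cycling genes were rare, 5 members having at least 2 UMIs summed over 5 such genes, Top2a and Mki67 among them; 3 of the 5 were in control replicate 1.

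The members were not uniform. At least 2 UMIs of Cilp were found in 260 of 531 members (49.0%), of Meox1 in 302 (56.9%), of Col8a1 in 435, of Ltbp2 in 111, of Prg4 in 154, of Timp1 in 214 and of Comp in 62. In the 3648 cells of the leukocyte gate 0 had 2 UMIs of Cilp, 2 of Meox1 and 3 of Col8a1. Cilp and Meox1 were found together in 187 members: 71.9% of Cilp-positive members had Meox1, against 42.4% of the others, and 156 members had neither. Prg4 was present in 40.4% of Cilp-positive members and 18.1% of the others, and 77.4% of the 62 Comp-positive members had Cilp. Acta2 was spread evenly over Cilp, in 14.2% of Cilp-positive and 13.7% of the other members. Cilp-positive members had a median of 13.5 Postn UMIs and the others 6, and their median depth was 9042.5 against 8153 UMIs, and the part of depth in these shares was not tested. Dpep1, the interstitial gene, was present in 268 members, whose median was 8 Postn UMIs against 9 in members without it.

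**Figure D3:**
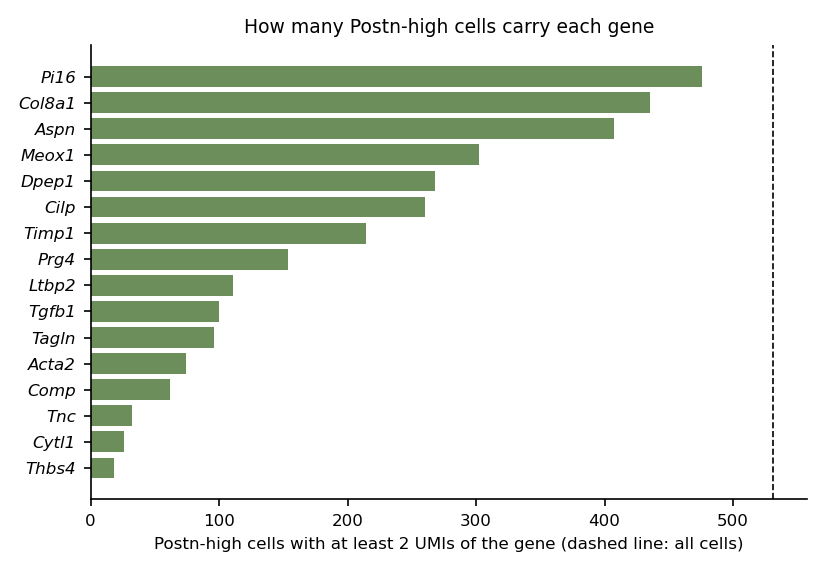
Number of the 531 members with at least 2 UMIs of each of 16 genes (bars; the dashed line marks all 531). Capture differs between genes, so the order of bars is not an order of expression; Pi16 and Col8a1 were found in most members, Cilp in 260 and Thbs4 in 18.

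Levels of several genes were graded along Postn. Cell depth also differed between the classes. In control replicate 1 the median was 7327 UMIs at 2 Postn UMIs, 9025 at 3 to 4 and 10701 at 10 or more. In disease replicate 4 it was 5914, 8294 and 8852 in the same classes, but 5770.5 at 5 to 9. The part of depth in the levels below was not tested. Just outside the threshold, fibroblasts with 2 Postn UMIs had 217, 0, 208, 468 and 308 CPM of Cilp, and just inside it, members with 3 to 4 Postn UMIs had 451, 261, 418, 402 and 361 CPM. Members with 10 or more had 926, 1401, 1031, 1468 and 1611 CPM. Col8a1 stood at 335 to 1113 CPM in cells with 2 Postn UMIs, at 752 to 1237 CPM with 3 to 4, and at 1337 to 2311 CPM with 10 or more. The Cilp classes were not in order everywhere: control replicate 1 had 224 CPM with 5 to 9. Dpep1 was lower, at 628 to 1710 CPM with 2 UMIs, 477 to 941 CPM with 3 to 4 and 146 to 640 CPM with 10 or more, although in control replicate 1 it was higher with 3 to 4 (941 CPM) than with 2 (701 CPM). Col1a1 rose along the classes in disease replicate 4, from 1595 CPM at 2 UMIs to 2360 CPM at 10 or more, and stayed between 1068 and 1109 CPM in the same classes of disease replicate 3. The classes with 2 UMIs held 7 to 48 cells a library and those with 3 to 4 held 9 to 52, so single values there rest on few cells.

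**Figure D4:**
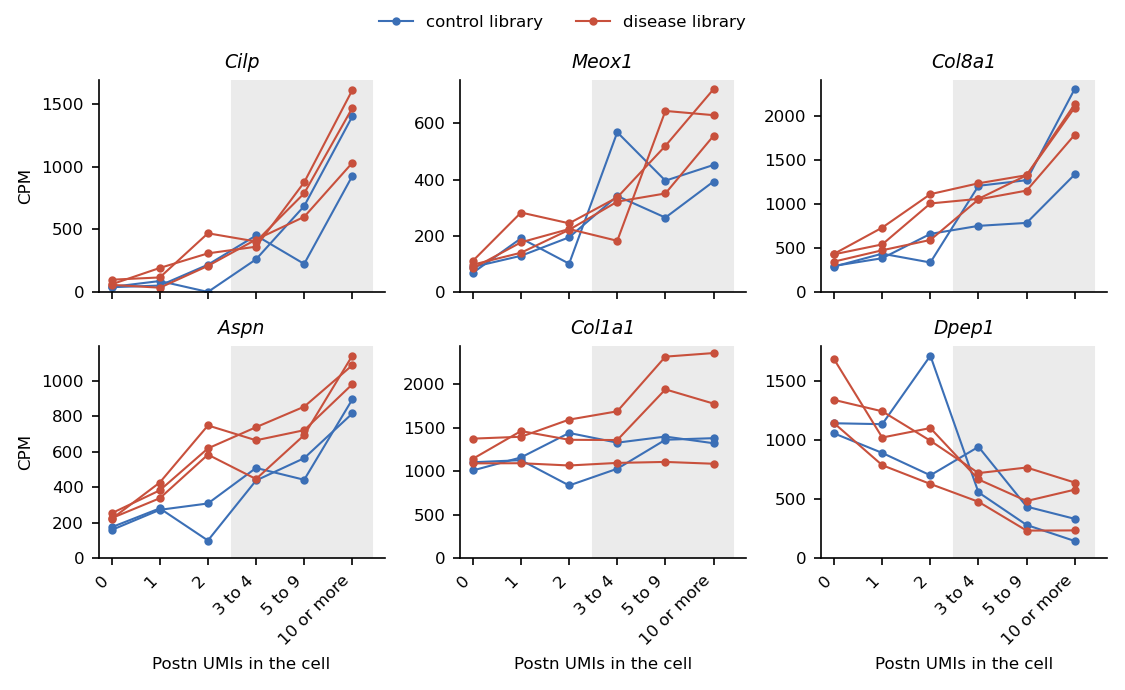
Summed CPM of 6 genes by the number of Postn UMIs in the cell, 1 line for each library (blue control, red disease); the grey area marks the members. Cilp, Col8a1 and Aspn climb into the highest class in the libraries, Dpep1 goes down, and Col1a1 differs between libraries. The classes also differ in cell depth.

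Between disease and control members, 701 of the 707 genes that passed the main test were lower in disease. Cilp, Meox1 and the collagens did not pass in the main test. Disease and control members were compared with edgeR's quasi-likelihood test on the summed counts of 5 libraries. Of 8600 genes tested, 707 passed the adjusted threshold (8.22%), 6 of them higher (0.0698%) and 701 lower (8.15%). The median log2 fold change of all genes was 0.03, and 3558 genes had CPM that did not overlap between the groups (41.4%). The count was 232 without control replicate 1, 346 without control replicate 2 and 345 without disease replicate 5. The number higher was 0 and 1 without control replicates 1 and 2, 21, 12 and 2 without disease replicates 3, 4 and 5, and 111 with no filter on low counts, and DESeq2 put 2 higher. The labels give no library batch or date, and a batch that followed the groups cannot be told apart from genotype in any of these calls.

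Against 8.22% of all genes, 0 of 17 tested collagens passed in either direction (median 0.11) and 0 of 11 activation factors and regulators. Cilp differed by 0.42 (SE 0.23, edgeR adjusted p = 0.344), Meox1 by 0.39 (SE 0.20, adjusted p = 0.315) and Col8a1 by 0.26 (SE 0.21, adjusted p = 0.543). Aspn was above both controls in each disease library (682 and 641 against 849, 896 and 948 CPM), with a log2 difference of 0.43 (SE 0.16) and an adjusted p of 0.171. Col3a1 overlapped between the groups (log2 0.56, SE 0.36, adjusted p = 0.434), but passed without disease replicate 3 (log2 0.87, adjusted p = 0.028) and with no filter on low counts (0.037). Timp1 differed by 1.44 (SE 0.74, adjusted p = 0.32), by 0.15 without disease replicate 4 and by up to 1.99 with equal cell numbers in each library, and passed with no filter on low counts (adjusted p = 4.56e-08). For the rule gene Postn the log2 difference was 0.63 (SE 0.16), given as a description. A p above the threshold does not show equal levels.

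The 6 genes that rose were Dbp, Serpinb9, S100a4, Atp6v0a4, Csrp1 and Tnnt2. Dbp, a transcription factor under the control of the circadian clock, was at 32.8 and 42.9 CPM in control members and 112, 93.6 and 161 CPM in disease members (log2 1.75, SE 0.31, edgeR adjusted p = 0.0112). The groups did not overlap, as for 41.4% of all genes tested and as the naming rule required. The Dbp call was lost without either control library (log2 1.55 and 1.88). Arntl, the clock activator that runs in opposite phase to Dbp, was lower at 46.1 and 56.3 against 18.2, 15.6 and 19.3 CPM (log2 -1.48, SE 0.26, adjusted p = 0.011). The Arntl call was lost without control replicate 1 (0.0849), control replicate 2 (0.0588) or disease replicate 5 (0.0509). Of 11 tested clock and glucocorticoid genes these were the 2 that passed, and the hour at which hearts were taken is not given in the labels. Tsc22d3, induced by glucocorticoids, differed by 0.78 (adjusted p = 0.143) and the clock output genes Hlf and Tef by 0.74 and 0.46, none past the threshold; Tsc22d3 passed without disease replicate 4 (log2 0.98, adjusted p = 0.00608).

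Atp6v0a4, the proton pump subunit that marked members over Postn-zero cells, rose from 36.7 and 51.0 CPM to 79.3, 84.3 and 83.3 CPM (log2 0.96, SE 0.23, edgeR adjusted p = 0.0417). S100a4, a calcium-binding protein used as a fibroblast and leukocyte marker, went from 61.7 and 64.4 to 98.5, 176 and 147 CPM (log2 1.15, adjusted p = 0.0487). Serpinb9, an inhibitor of granzyme B, went from 17.2 and 16.1 to 51.4, 45.3 and 32.7 CPM (log2 1.31, adjusted p = 0.0443), and the LIM protein gene Csrp1 from 89.8 and 105 to 176, 154 and 184 CPM (log2 0.82, adjusted p = 0.0422). The groups did not overlap for any of these 4 genes, as for 41.4% of all genes tested, and the naming rule required it. Each of the 4 lost its call in 9 to 11 of 15 alternatives. Without control replicate 1 the log2 difference was 0.72 for Atp6v0a4 (adjusted p = 0.331), 1.15 for S100a4 (0.277), 1.42 for Serpinb9 (0.264) and 0.74 for Csrp1 (0.283). Without disease replicate 5 the differences were 0.91, 1.09, 1.48 and 0.74, with adjusted p of 0.171, 0.167, 0.0591 and 0.175. Tnnt2, a cardiomyocyte troponin gene, was at 2.34 and 8.05 against 18.2, 25.0 and 20.0 CPM (log2 2.40, adjusted p = 0.0292). It differed by 1.38 without control replicate 1 (adjusted p = 0.361) and by 2.40 without disease replicate 5 (0.101), and by 3.06 without control replicate 2. The summed level of the 10 cardiomyocyte markers overlapped between the groups, at 31.2 and 113 against 52.5, 71.8 and 95.3 CPM.

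Among matrix and secreted genes, several falls were large, with no overlap between the groups, as for 41.4% of all genes tested. Igfbp7, a secreted binding protein of the insulin-like growth factor system, was at 3723 and 7482 CPM in control members and 639, 350 and 699 CPM in disease members (log2 -3.31, SE 0.35, edgeR adjusted p = 0.00108). Igfbp4 was at 1872 and 1720 against 237, 295 and 334 CPM (log2 -2.65, SE 0.19, adjusted p = 0.000297). Crtap, part of the complex that hydroxylates collagen prolines, was at 310 and 300 against 46.1, 35.9 and 46.0 CPM (log2 -2.83, SE 0.20), and the related gene P3h4 fell by 1.94 on the log2 scale. Fbln1, a basement membrane glycoprotein, was at 1330 and 1164 against 394, 332 and 341 CPM (log2 -1.82, SE 0.17). Pcolce2, an enhancer of procollagen cleavage, fell by 1.83 and the protease gene Htra3 by 1.79, and Smoc2 was at 544 and 638 against 157, 147 and 273 CPM, a call lost without control replicate 1 (log2 -1.69, adjusted p = 0.0724) or 2 (-1.51, 0.0791).

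By list, falls made up 0 to 5 of the genes tested. Of 21 collagen processing genes 4 fell (Crtap, P3h4, Pcolce2 and P4hb) and 0 rose. Of 25 matricellular genes 4 fell, namely Cyr61, Fbln1, Smoc2 and Thbs4, and 0 rose; Thbs4 lost its call in 9 of 15 alternatives and rests on 34 cells. Of 14 chaperones of the endoplasmic reticulum 3 fell, Pdia3 (log2 -2.28), Manf (-2.62) and the stress factor Xbp1 (-1.96), whereas Hspa5, Calr and Hsp90b1 lay between -0.20 and -0.02. Of 12 dissociation-induced genes 5 fell, with Atf3 at 835 and 606 against 160, 165 and 131 CPM, while Fos, Jun and Egr1 did not pass. Of 20 tested cytokine genes Cxcl12 (log2 -1.79) and the macrophage growth factor Csf1 (-1.16) fell. Of 25 tested interferon-gamma response genes 0 rose (median 0.61) and 2 fell, H2-D1 and Socs1 (log2 -1.98 each). These counts describe only the cells that the rule left: its interferon exclusion took 45.5 and 27.8% of fibroblasts with at least 3 Postn UMIs in disease replicates 4 and 5, and 0 to 5.30% in the other libraries. The 2 of 20 and the 2 of 25 that fell are near the 8.15% of all genes. The contractile gene Tpm1 fell (log2 -1.18), and Acta2 and Tagln did not pass (log2 -0.60 and 0.02). Podn, Bambi and Sfrp2 fell too (log2 -1.43, -1.97 and -1.79). Some of these calls were lost with 1 library left out. Where a call was lost, the fold change kept its direction and most of its size, except for H2-D1 without control replicate 1 (log2 -1.11) and Sfrp2 without control replicate 2 (log2 -1.03). Csf1 lost its call without any 1 of the 5 libraries (log2 -1.48 to -0.82, adjusted p 0.0527 to 0.233), and Bambi without each but disease replicate 3 (adjusted p 0.069 to 0.314), where it was at -2.82. P3h4 lost its call without control replicate 1 (adjusted p = 0.0581). Sfrp2 was at -2.43 without control replicate 1 and Thbs4 at -4.46 without disease replicate 4. Without control replicate 1 the adjusted p rose to 0.0913 for Manf, 0.183 for Socs1, 0.372 for H2-D1, 0.0648 for P4hb, 0.0702 for Tpm1, 0.124 for Cxcl12, 0.139 for Thbs4 and 0.176 for Podn. Without control replicate 2 it was 0.0601 for Socs1, 0.0932 for Cxcl12, 0.25 for Thbs4, 0.0816 for Podn and 0.258 for Sfrp2. Without disease replicate 5 it was 0.0677 for Socs1, 0.103 for H2-D1, 0.0976 for Cxcl12, 0.177 for Thbs4, 0.0633 for Podn and 0.0708 for Sfrp2. Without disease replicate 3 it was 0.0655 for Thbs4 and 0.0757 for Sfrp2, and without disease replicate 4 it was 0.0845 for Sfrp2.

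The largest falls were in genes outside these lists. H2afj, a histone H2A variant, was at 140 and 134 CPM in control members and 5.36, 1.56 and 4.00 CPM in disease members (log2 -5.11, SE 0.31). Rnaset2b, Rnaset2a, Scand1, Mrps24, Pgls, Snrpf and Nenf had log2 values from -5.34 to -4.26, and Nenf was at -3.64 without control replicate 2. Rnaset2a and Rnaset2b are near-identical copies, between which reads may be split in counting. Genes that fell had a higher GC content in the first 300 bases of the transcript, with a median of 60.5% against 56.5% over all genes tested, and the 6 that rose had 53.4%. Across genes, GC content and the log2 difference had a Spearman rho of -0.31. After a GC trend was removed 611 genes passed, 14 higher and 597 lower. The part of GC content in the falls was not tested beyond this.

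Cthrc1 also passed in the direction of disease below control (log2 -2.90, SE 0.58, edgeR adjusted p = 0.0189). Its UMIs lay in 7 control and 7 disease members, and the call was lost without either control library (adjusted p 0.0758 and 0.136). Without disease replicate 5 its log2 difference was -3.61.

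No gene was shown to differ between members and Postn-zero fibroblasts in its disease against control difference. In Postn-zero cells 1693 of 12919 genes passed (13.1%), 44 higher (0.341%) and 1649 lower (12.8%); the libraries are the same, so this is not an independent replication. Igfbp7 had a log2 difference of -3.31 in members and -3.20 in Postn-zero fibroblasts, Crtap -2.83 and -2.69, Igfbp4 -2.65 and -2.33, H2afj -5.11 and -5.38, and Dbp 1.75 and 1.69. Rnaset2a, Rnaset2b, Scand1, Snrpf, Nenf, Mrps24 and Pgls were at -5.03 to -4.26 in Postn-zero fibroblasts. After Dbp, the largest rises there were Prg4 (1.15, as in members), Wisp2 (1.1, and 0.82 in members), Hlf (0.86 and 0.74), Tef (0.81 and 0.46), Tsc22d3 (0.81 and 0.78), Serpina3n (0.80 and 0.48) and Stc2 (0.78 and 0.49). Those 7 did not pass in members in the main test, and in Postn-zero fibroblasts each lost its call in 1 to 9 of 14 alternatives. With no filter on low counts Prg4 and Wisp2 passed in members (edgeR adjusted p = 6.3e-05 and 0.0431), and so did Tsc22d3. In members Prg4 differed by 0.458 without disease replicate 3 and by 1.725 without control replicate 1. Serpinb9 differed by 1.31 in members and 0.12 in Postn-zero fibroblasts, and Tnnt2 by 2.40 and 0.11. The interaction of cell group and genotype, tested over 12438 genes with edgeR, called 0 (0%), with 463 genes at an unadjusted p under 0.05 (3.72%), and DESeq2 called 0 as well. For Serpinb9 the interaction was 1.18 (SE 0.31), for Tnnt2 2.23 (SE 0.65) and for Cilp -0.40 (SE 0.17), each with an adjusted p of 1.

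**Figure D5:**
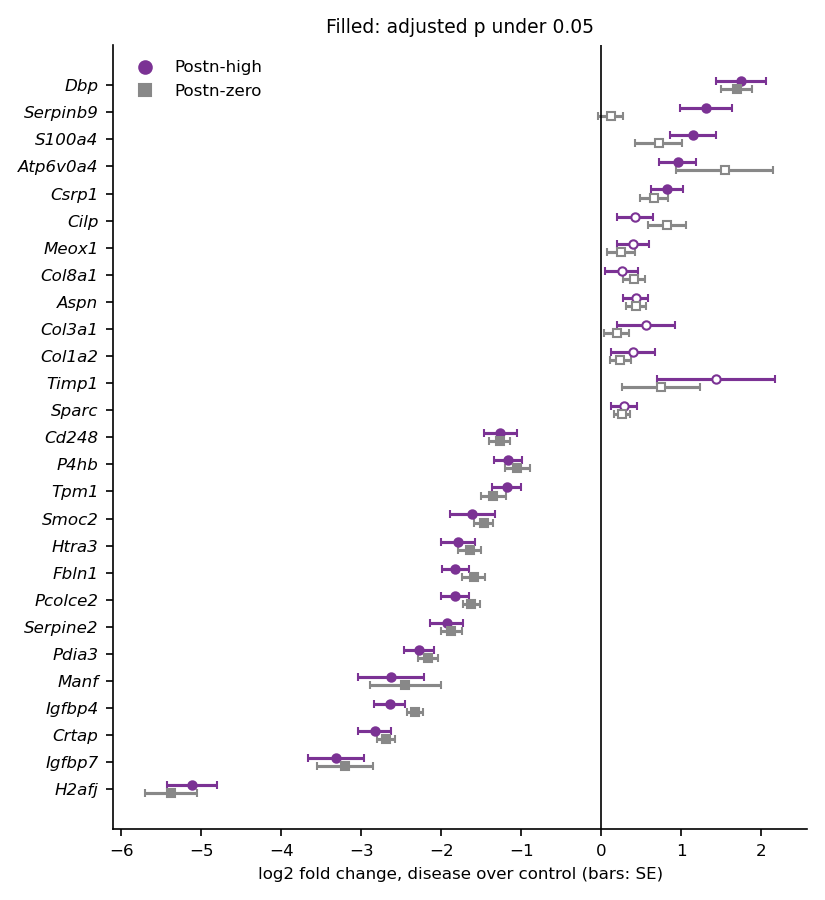
Log2 fold change of disease over control for 27 genes in members (purple circles) and Postn-zero fibroblasts (grey squares), with SE; filled symbols have an adjusted p under 0.05. The symbols of the genes that fell, from Cd248 to H2afj, lie side by side in the 2 cell groups, and the matrix genes Cilp to Sparc are open in both.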

How the data were processed

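The deposited values are unnormalised UMI counts, 1 for each gene in each barcode, which the authors made with Cell Ranger 3 (software 3.1.0 per the file headers); the submitters' processing notes also name Seurat 3 and the builds GRCh38 and mm10 with no role. No batch or date is given in the labels. Barcodes with at most 10% mitochondrial UMIs were kept; members were picked on raw counts by the sums given above, and Scrublet (scanpy 1.11.5, in Python 3.11.15) was used as a check only. Counts were summed per library and cell group. The main test was the quasi-likelihood F test of edgeR 4.0.16 (R 4.3.3) after filterByExpr and TMM scaling, with Benjamini-Hochberg adjustment over all genes tested and a threshold of 0.05. The 12 genes of the rule and mitochondrial genes were not counted as calls. The fits were tested on simulated data. DESeq2 1.42.0 was an alternative. Shares were compared with an exact permutation test (enumerated with numpy 2.4.6).

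The members and the 30 gene lists were chosen with earlier results of these data known. Beyond the lists, each comparison names up to 8 of the largest rises and falls among called genes whose average log2 CPM is 5 or more. For disease against control, the CPM of the groups also had to be free of overlap. For members against Postn-zero fibroblasts, the direction had to be the same in all 5 libraries. Tnnt2 is on the cardiomyocyte list. GC content was taken from the first 300 bases of reference transcripts. Ccl19 has a repeated symbol and was not tested. The result of 1 marker list is not reported here. Leaving out a control library leaves 1, which is then assumed to vary like the disease libraries.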

Additional observations from a re-analysis of the deposited data

How the results depend on the processing

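With 3 disease and 2 control libraries of pooled hearts, many calls were lost when 1 library was left out. The count for disease against control members was 1207 with no filter on low counts, 367 with 40 cells drawn from each library, and 232 to 770 when 1 library was left out; without disease replicate 3 it was 770 and without disease replicate 4 it was 688. For Postn-zero fibroblasts the counts were 791 to 1717 (1090 without control replicate 1, 791 without control replicate 2, 934 without disease replicate 5), and DESeq2 put 15.4% of its calls higher, against 2.60%. Members against Postn-zero fibroblasts gave 772 genes at matched depth, 1413 to 1708 with 1 library left out, and 469 with no replicate block, that is, with the library left out of the model, where 29 of 91 named genes lost their call. Higher calls were 53.0% of the total, 41.9% against Postn-zero cells without exclusions and 39.0% with no filter, which moved the median of all genes to -0.19. Gbp3 turned to -0.19 (adjusted p = 0.496) against Postn-zero cells without exclusions. The interaction called 1 gene against Postn-zero cells without exclusions, 13 with no filter, which moved the median to 0.10, and 0 to 3 with 1 library left out. The difference in share ranged from 1.77 to 4.10 points with 1 library left out and from 2.11 to 4.605 points over the other alternatives, of which the 2 that lifted exclusions were chosen after seeing the data. The cause of these changes was not tested. No paired analysis was possible because control and disease libraries share no replicate number.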

Other observations

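The rule set aside fibroblasts with at least 3 Postn UMIs that also carried at least 5 UMIs over Cxcl9, Cxcl10 and Gbp4. Among cells that passed the other exclusions, there were 7 in control replicate 1, 0 in control replicate 2, 1 in disease replicate 3, 56 in disease replicate 4 and 65 in disease replicate 5, so they can be described in 2 libraries and were not tested. In disease replicates 4 and 5 they held 1090 and 2166 CPM of Postn, 480 and 890 CPM of Cilp and 293 and 550 CPM of Meox1. Col8a1 was at 664 and 967 CPM, against 1771 and 1671 CPM in the members of the same libraries, and Pi16 at 1163 and 1071 CPM against 2562 and 3612 CPM. Aspn was at 588 and 740 CPM and Ltbp2 at 51.1 and 105 CPM, against 896 and 948 CPM and 126 and 115 CPM in members. Sparc was at 8899 and 6317 CPM, against 8157 and 6275 CPM. Col1a1 was at 2979 and 2399 CPM, against 2208 and 1708 CPM, and Col3a1 at 6049 and 5401 CPM, against 4440 and 3360 CPM. Timp1 was at 3292 and 2685 CPM, against 1781 and 432 CPM, and Tnc at 245 and 486 CPM, against 108 and 55.3 CPM. The complement gene C3 was at 3235 and 2825 CPM, against 727 and 706 CPM. The chemokine gene Ccl2 was at 2085 and 908 CPM, and Acta2 at 63.1 and 67.6 CPM against 122 and 129 CPM in members. Inmt, the interstitial gene that was low in members, was at 3.01 and 0 CPM, whereas Dpep1 was at 1580 and 1428 CPM, against 577 and 687 CPM in members. Gbp2 and Cd74, which respond to interferon-gamma like the genes that chose these cells, were at 2022 and 1319 CPM and at 3078 and 1598 CPM.

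In disease replicate 3 the Wnt inhibitor gene Wif1 was found in 12 members (64.3 CPM), in disease replicate 5 in 2 members (4.67 CPM), and in the other 3 libraries in 0.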
